A study of Mus musculus with 2 samples.

Results

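Genes of the smooth muscle contractile apparatus were followed through 2 single-cell RNA libraries of mouse tumors. The set held 10 genes (Acta2, Tagln, Myh11, Cnn1, Mustn1, Myl9, Tpm2, Lmod1, Actg2 and Des), chosen for their known function and found by symbol among the 32285 genes counted. Both libraries came from C57BL/6 mice that carried Gucy1b1 flox/flox, were given tamoxifen (5 doses, from an age of 4 weeks), were inoculated with LLC lung carcinoma cells under the skin at 8 weeks and were dissected 2 weeks later. The sGC-ΔPC mice also carried Cspg4-CreERT2 (the label reads Gucyc1b1 flox/flox for their floxed allele), and the sGC-Ctr mice had no Cre. Each library pooled the cells of 3 tumors, and there was 1 library per genotype. No test between genotypes was therefore possible, and every interval below is an exact 95% interval that covers counting error only.

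Smooth muscle cells and pericytes contract when myosin pulls on actin filaments, and the smooth muscle forms of actin, myosin and their binding proteins are used as markers of contractile mural cells, the cells that wrap blood vessels. Many of these genes are switched on together by serum response factor, which binds a DNA element called the CArG box, and its partner myocardin. Soluble guanylate cyclase (sGC), whose β1 subunit is encoded by Gucy1b1, is the receptor for nitric oxide and makes cyclic GMP, the messenger that relaxes smooth muscle. Fibroblasts that become myofibroblasts switch on part of the same set, Acta2 and Tagln above all.

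The promoters of 4 members are shown because they differ in the element that these genes are known for. Each is the 250 bases before the RefSeq start of the gene (build GRCm38.p6), written 5′ to 3′ on the strand of the gene, with CArG boxes in capitals (a pair of C, a centre of A or T, a pair of G, with at most 1 G or C allowed in the centre, on both strands).
Acta2 (chr19:34255374-34255623, - strand): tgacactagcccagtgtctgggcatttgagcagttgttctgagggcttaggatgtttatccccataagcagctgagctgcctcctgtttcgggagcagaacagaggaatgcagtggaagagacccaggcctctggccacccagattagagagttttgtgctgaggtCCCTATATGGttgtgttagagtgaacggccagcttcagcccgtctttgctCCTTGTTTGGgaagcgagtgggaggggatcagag
Myl9 (chr2:156775214-156775463, + strand): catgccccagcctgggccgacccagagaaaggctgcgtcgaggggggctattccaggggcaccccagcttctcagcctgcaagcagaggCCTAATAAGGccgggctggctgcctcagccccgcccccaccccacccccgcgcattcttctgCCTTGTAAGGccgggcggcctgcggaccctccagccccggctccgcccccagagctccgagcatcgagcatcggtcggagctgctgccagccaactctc
Cnn1 (chr9:22099003-22099252, + strand): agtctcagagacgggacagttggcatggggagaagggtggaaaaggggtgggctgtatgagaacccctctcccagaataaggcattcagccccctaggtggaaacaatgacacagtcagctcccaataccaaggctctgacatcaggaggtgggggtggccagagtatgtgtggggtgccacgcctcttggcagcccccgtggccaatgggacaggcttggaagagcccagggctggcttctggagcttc
Mustn1 (chr14:30879007-30879256, + strand): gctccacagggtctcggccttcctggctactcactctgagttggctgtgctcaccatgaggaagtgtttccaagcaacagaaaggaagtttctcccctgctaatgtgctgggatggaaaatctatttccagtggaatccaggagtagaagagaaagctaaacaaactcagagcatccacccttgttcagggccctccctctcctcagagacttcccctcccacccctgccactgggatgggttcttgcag
Acta2 held a pair of such elements, starting 84 and 34 bases before the start, each with 1 G or C in its centre. Myl9 held an exact CArG box 161 bases before the start and a second with 1 G or C in its centre 99 bases before it, while Cnn1 and Mustn1 held none in this window. Of the 7 members in the RefSeq table, 1 had an exact box and 2 had one when 1 G or C was allowed, against 1.47% and 8.59% of the 32851 promoters searched. Des, Lmod1 and Tpm2 had no match, and Tagln, Myh11 and Actg2 were not in the table. A match describes the letters of the window only.

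The members lie apart from each other in the genome (GRCm38, GENCODE gene models). Des is on chromosome 1 (75360329 to 75368579, + strand), Lmod1 on chromosome 1 (135324807 to 135368065, + strand), Myl9 on chromosome 2 (156775420 to 156781658, + strand), Tpm2 on chromosome 4 (43514711 to 43523765, - strand) and Actg2 on chromosome 6 (83512905 to 83536265, - strand). Cnn1 (22099216 to 22109630, + strand) and Tagln (45929619 to 45936058, - strand) are both on chromosome 9, Mustn1 is on chromosome 14 (30879200 to 30881610, + strand), Myh11 on chromosome 16 (14194535 to 14291372, - strand) and Acta2 on chromosome 19 (34241090 to 34255590, - strand). Genes on the other strand overlap Tagln (Pcsk7 and Gm48529), Des (Gm15179) and Lmod1 (Gm22796). Acta2 and Actg2 encode nearly the same protein, and whether any read of these libraries fits both genes was not tested.

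The sGC-Ctr library held 15007 barcodes and the sGC-ΔPC library 25631, of which 12220 and 22498 passed the filters on mitochondrial share, UMIs (unique molecular identifiers, counted molecules) and genes. Median depth was 35776.5 UMIs per kept cell in the former and 8685 in the latter. The libraries shared 131 barcodes, and none of them was in a pericyte. Cells were assigned to a class by the summed UMIs of its markers, with none of the members among the markers, and the 146 and 625 cells that passed more than 1 gate were set aside as mixed. Pericytes numbered 40 in sGC-Ctr and 45 in sGC-ΔPC, with 462103 and 355698 UMIs in all and medians of 10371.5 and 5130 UMIs. They held UMIs of all 8 pericyte markers in both libraries, with Rgs5 at 4702 and 4057 CPM (counts of a gene scaled to a common total for every class). A gated class is a range of a score rather than a cell type: 11 and 26 cells lay between 80 and 120% of the pericyte cut, 28 and 134 near the fibroblast cut and 1014 and 2205 near the cancer cell cut. The median pericyte also had 20.4 and 18.3 fibroblast marker UMIs per 10000, and the level of the cancer cell markers in pericytes was 6.16% of that in cancer cells in sGC-Ctr and 13.3% in sGC-ΔPC. The part of these differences in the results was not tested, beyond the alternatives given at the end.

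The targeted gene and the gene that drives the Cre were both lower in sGC-ΔPC pericytes. Gucy1b1 was counted 59 times in pericytes of sGC-Ctr and 13 times in those of sGC-ΔPC (log2 ratio -1.80, interval -2.80 to -0.92). Cspg4, into which the Cre was inserted, had 78 and 24 UMIs there (log2 ratio -1.32, interval -2.05 to -0.65). Cspg4 was also counted in macrophages, at 52.7 CPM in sGC-Ctr and 29.5 in sGC-ΔPC, so transcripts of the driver gene were not limited to pericytes. As for other cells the tissue could hold, 10 skeletal muscle genes summed to 0 UMIs in sGC-Ctr and 2 in sGC-ΔPC pericytes, with 10 and 9 of the genes at 0, and 6 Schwann cell genes to 5 and 0, with 5 and 6 at 0.

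All 10 members had their highest counted level in pericytes, among the gated classes, in both libraries. No gate was set for smooth muscle cells, so those of vessel walls could lie in the pericyte class or in none. Among classes with a UMI of the gene, the 95% intervals of pericytes and the next class were apart for each member in sGC-Ctr, and for each but Mustn1 in sGC-ΔPC. Small classes without a UMI set a limit: 3 UMIs would be 49.3 and 51.0 CPM in natural killer cells, 15.7 and 26.1 in dendritic cells and 10.3 and 8.55 in T cells. At this depth natural killer cells cannot be placed below pericytes for Cnn1 in either library or for Mustn1 in sGC-ΔPC, and dendritic cells cannot for these genes in sGC-ΔPC, nor T cells for the 3 Cnn1 UMIs there (8.43 CPM). The upper limits for natural killer cells, 60.6 and 62.7 CPM, also reached the intervals of Mustn1 in sGC-Ctr and of Lmod1 and Actg2 in sGC-ΔPC pericytes. The interval of Cnn1 in sGC-Ctr pericytes overlapped those of dendritic and T cells as well. The spread below that peak differed between members. Acta2, α smooth muscle actin, stood at 3012 CPM in sGC-Ctr pericytes and 2817 in sGC-ΔPC pericytes, which was 18.8-fold and 53.2-fold above fibroblasts. Without the cell with most Acta2 in each class and library, pericytes stood at 2236.2 and 2219.5 CPM and fibroblasts at 53.2 and 41.4. Lmod1, a leiomodin that starts actin filaments in smooth muscle, stood at 86.6 and 89.96 CPM, and was 1760-fold and 1094-fold above cancer cells, the next class with a UMI of it. Tpm2, β-tropomyosin, which lies along actin filaments, had UMIs in every class and was only 3.44-fold and 3.73-fold above fibroblasts.

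**Figure D1:**
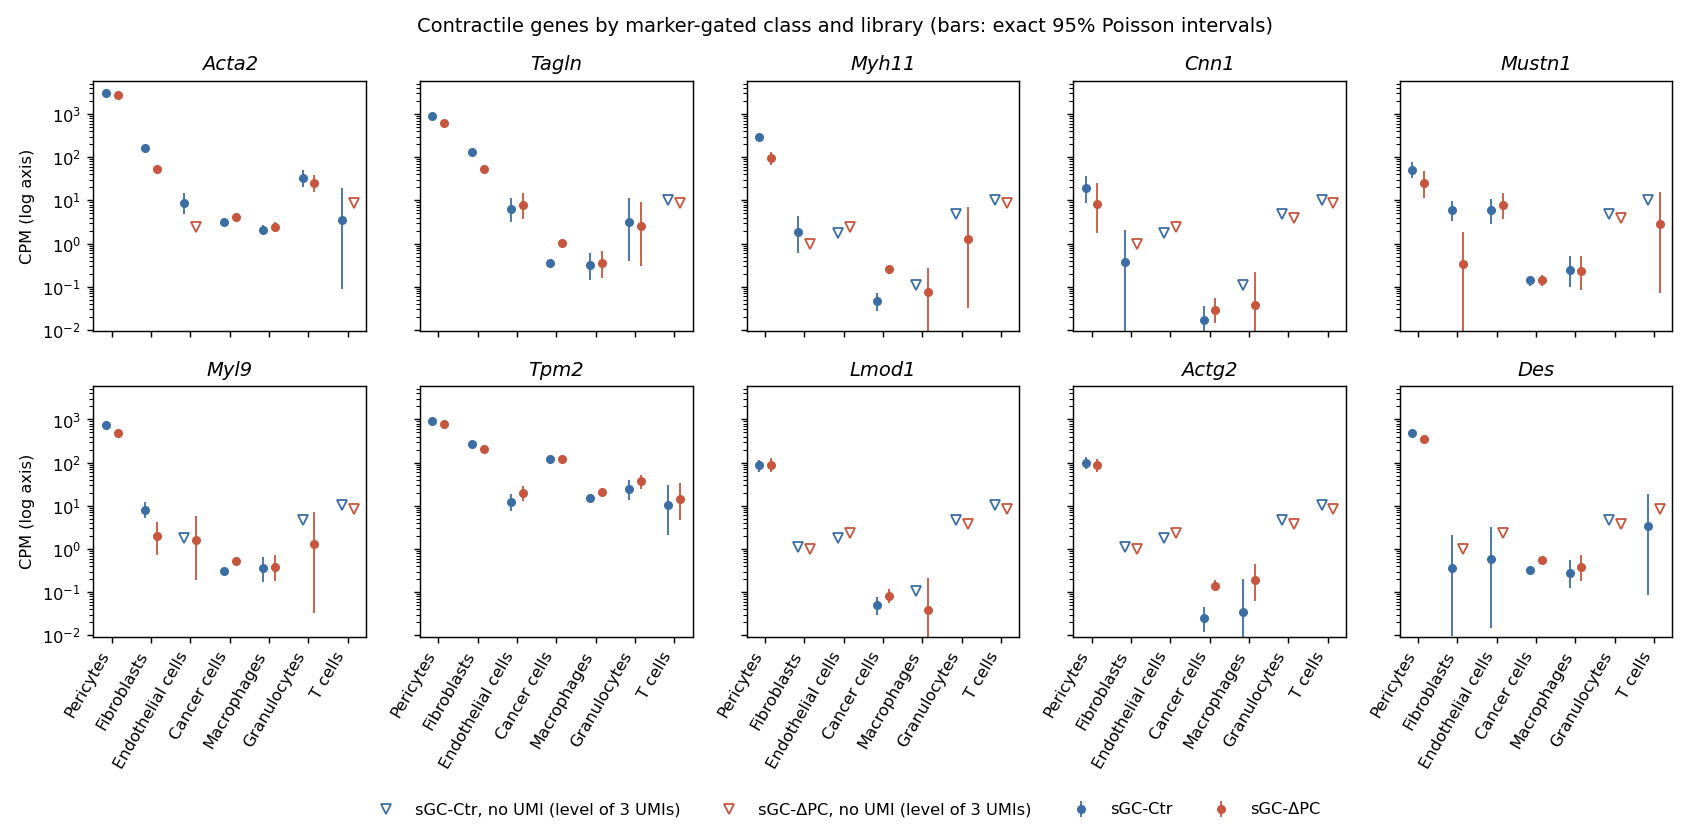
Level of each contractile gene in CPM (log axis) in 7 gated classes of the sGC-Ctr (blue) and sGC-ΔPC (red) libraries, with exact 95% Poisson intervals; open triangles mark the level of 3 UMIs where no UMI was found. Of the filled points, those of pericytes stand highest in every panel, Tpm2 stays above 10 CPM in every class, and Acta2 and Tagln are next highest in fibroblasts.

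The order below pericytes followed a common pattern for a few members only. Acta2, Tagln, Myl9 and Tpm2 were second highest in fibroblasts in both libraries. For Myl9 that order is uncertain. In sGC-ΔPC it had 6 UMIs in fibroblasts (1.97 CPM, interval 0.72 to 4.30) and 2 in endothelial cells (1.58 CPM, interval 0.19 to 5.72). In sGC-Ctr, 1 cell held 15 of its 22 fibroblast UMIs. For Tagln, transgelin, fibroblasts stood at 130 and 53.0 CPM, and endothelial cells came next at 6.44 and 7.92 CPM. Mustn1, a small nuclear protein of muscle and bone, stood at 51.9 CPM in sGC-Ctr pericytes against 5.95 in fibroblasts and 5.85 in endothelial cells. In sGC-ΔPC it stood at 25.3 CPM in pericytes (interval 11.6 to 48.0) and 7.92 in endothelial cells (interval 3.80 to 14.6), and these intervals overlapped. Des, desmin, the intermediate filament of muscle cells, had 1 UMI in sGC-Ctr fibroblasts and 0 in sGC-ΔPC fibroblasts, and no fibroblast UMI of Lmod1 or Actg2 was found in either library.

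A class with a high level need not hold most of the molecules of a gene, because cancer cells outnumbered pericytes. Gated pericytes held 69.0% of all Myh11 UMIs of the kept cells in sGC-Ctr and 21.9% in sGC-ΔPC. Their share of Acta2 was 36.1% and 32.7%, and their share of Des 51.5% and 31.0%. Cancer cells held 91.1% and 89.3% of Tpm2, at 123 CPM in each library.

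**Figure D2:**
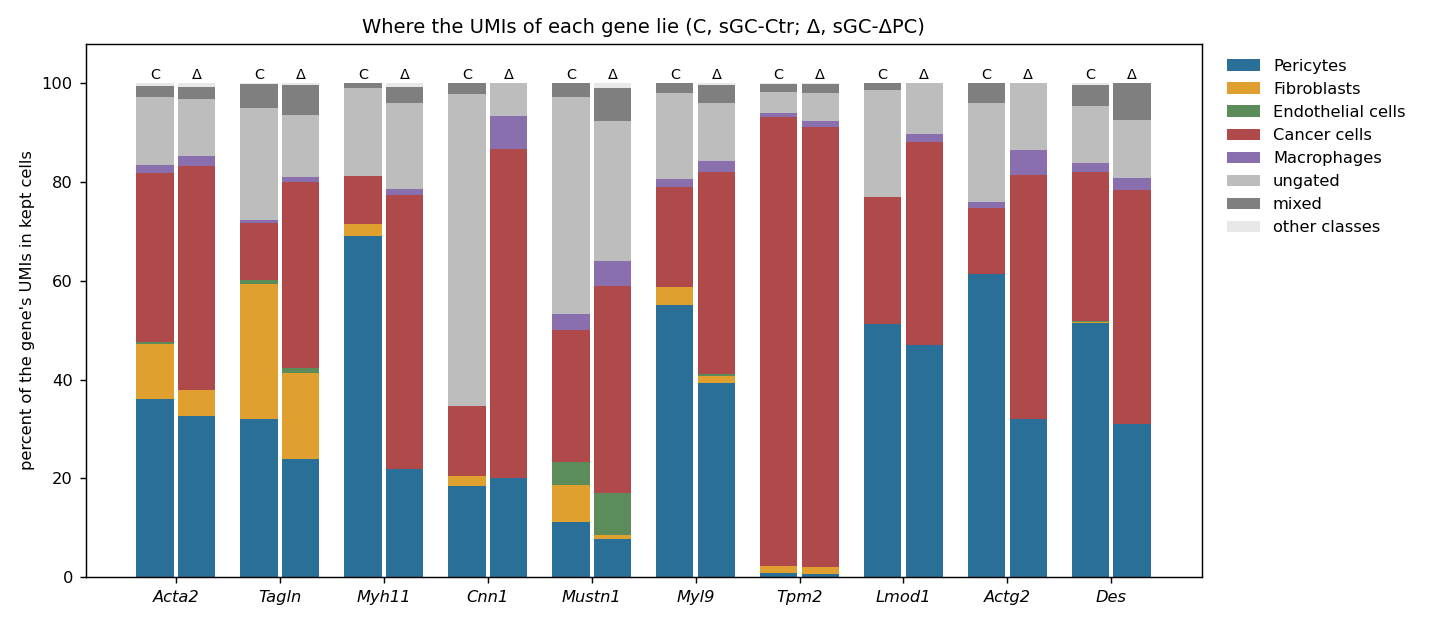
Share of the UMIs of each gene (percent, stacked) by gated class in sGC-Ctr (C) and sGC-ΔPC (Δ), with cells that passed no gate (ungated) or more than 1 gate (mixed) in grey. Tpm2 lies almost wholly in cancer cells, the pericyte share of Myh11 is 69.0% against 21.9%, and 63.3% of Cnn1 in sGC-Ctr lies in ungated cells.

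Between genotypes, Myh11 was the member that differed most in pericytes. Smooth muscle myosin heavy chain Myh11 was counted 136 times in the 40 pericytes of sGC-Ctr and 34 times in the 45 of sGC-ΔPC, or 294 against 95.6 CPM, 3.08-fold lower in sGC-ΔPC (log2 ratio -1.62, interval -2.21 to -1.07). It was the 1 member of the 8 with at least 50 UMIs that was at least 2-fold lower, where 1.43% of the 2447 genes with as many UMIs were as low, and no member was 2-fold higher, as 1.27% of the genes were. The interval of the log2 ratio lay below 0 for 5 of the 8 (Tagln, Myh11, Myl9, Tpm2 and Des), against 10.4% of all genes. Whether an interval excludes 0 depends on the UMIs of a gene as well as its ratio, so these shares are not a like comparison. The log2 ratios of all genes had quartiles of -0.33 and 0.16, and that of Tpm2, -0.25, lay between them. The median log2 ratio of the 8 members was -0.36, and that of all genes -0.08. Of the 8 markers that define the gate, 6 were also at a lower level in sGC-ΔPC pericytes, among them Notch3 (394 and 278 CPM), Cox4i2 (889 and 633) and Ndufa4l2 (1396 and 1074), while Pdgfrb (768 and 784) and Abcc9 (580 and 610) were not. The part of this in the ratios of the members was not tested.

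In summed level, the actins differed less between the libraries than Myh11. Acta2 was counted 1392 and 1002 times in sGC-Ctr and sGC-ΔPC pericytes (log2 ratio -0.10, interval -0.22 to 0.02). Actg2, the smooth muscle actin of the gut wall, had 46 and 31 UMIs, or 99.5 and 87.2 CPM (log2 ratio -0.19, interval -0.90 to 0.50). Both intervals included 0, and the interval of Acta2 did not include a log2 ratio below -0.22. That interval does not cover the spread between cells: 3 cells held 812 of the 1392 Acta2 UMIs and 3 held 667 of the 1002. The median pericyte had 7.12 Acta2 UMIs per 10000 in sGC-Ctr and 1.14 in sGC-ΔPC, where cells were shallower.

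Of the proteins bound to actin, Tagln was at 883 CPM in sGC-Ctr and 621 in sGC-ΔPC pericytes (408 and 221 UMIs, log2 ratio -0.51, interval -0.75 to -0.27). Tpm2 was at 931 and 784 CPM (log2 ratio -0.25, interval -0.47 to -0.03). Lmod1 had 40 and 32 UMIs (log2 ratio 0.06, interval -0.66 to 0.76). Tagln and Tpm2 were thus lower by more than counting error, but the interval of Tpm2 included the median of all genes, -0.08. The counts of Lmod1 were too few to place it. Cnn1, calponin 1, which holds back the myosin motor on actin, had 9 and 3 UMIs, too few for a comparison (log2 ratio -1.21, interval -3.73 to 0.80).

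Myl9, the regulatory light chain of smooth muscle myosin, was at 736 CPM in sGC-Ctr and 495 in sGC-ΔPC pericytes (340 and 176 UMIs, log2 ratio -0.57, interval -0.84 to -0.31). Its ratio lay above that of Myh11, the heavy chain it binds, but without the leading cell of each gene in each library the intervals overlapped (Myl9 -0.64, interval -0.95 to -0.34, and Myh11 -1.38, interval -2.09 to -0.72). Des was at 487 and 351 CPM (225 and 125 UMIs, log2 ratio -0.47, interval -0.80 to -0.15). Mustn1 had 24 and 9 UMIs, under the minimum for the comparison (log2 ratio -1.04, interval -2.33 to 0.12).

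**Figure D3:**
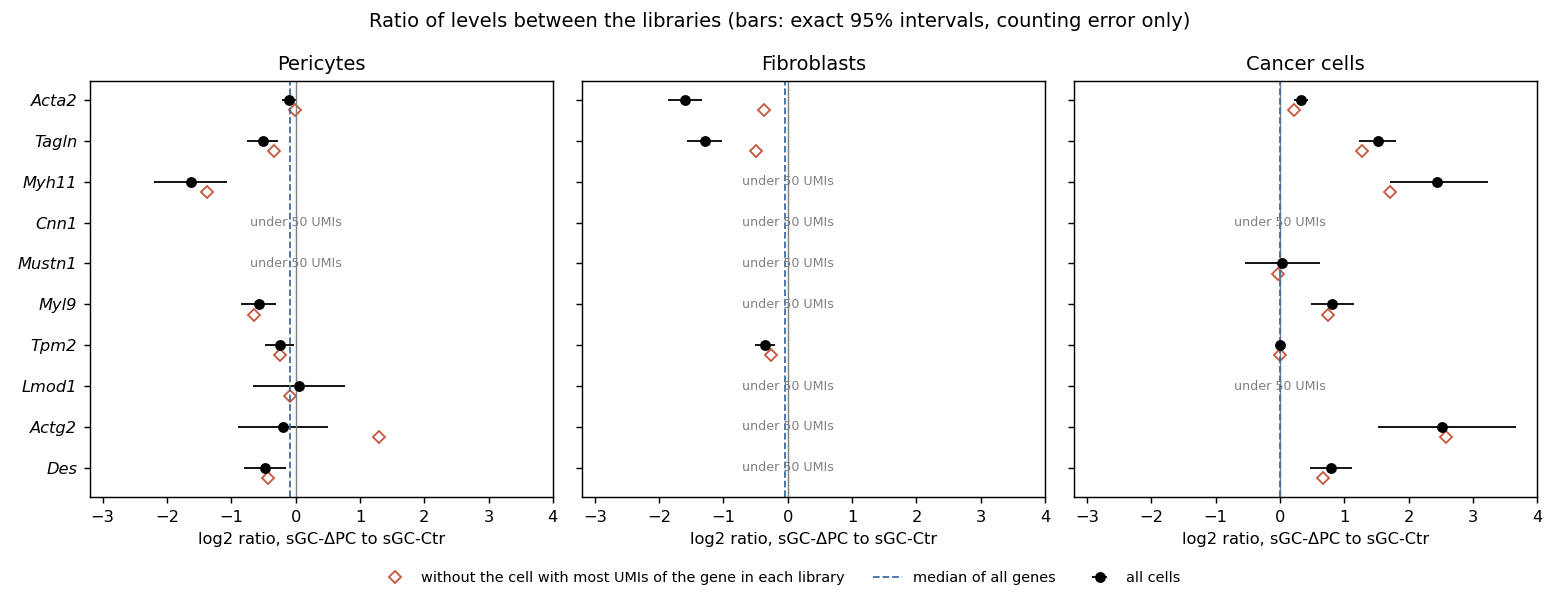
Log2 ratio of the level in sGC-ΔPC to that in sGC-Ctr for each gene with at least 50 UMIs in pericytes, fibroblasts and cancer cells (points, exact 95% intervals), the same without the cell with most UMIs of that gene in each library (open diamonds), and the median of all genes (dashed). Myh11 is lowest in pericytes at -1.62, and the fibroblast values of Acta2 and Tagln move from -1.60 and -1.29 to -0.36 and -0.50 without 1 cell in each library.

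A few cells carried most of the molecules of several members. Among sGC-Ctr pericytes, 3 cells held 51, 37 and 20 of the 136 Myh11 UMIs, and 20 of the 40 cells had none. In sGC-ΔPC, the leading 3 cells held 19 of 34 UMIs and 13 of 45 cells had any. Without the single leading cell of each library the log2 ratio of Myh11 was -1.38 (85 and 25 UMIs). Without the 3 pericytes of each library with most Myh11, an omission that lowers the counts it is chosen on, the ratio was -0.49 (28 and 15 UMIs, interval -1.50 to 0.46). The same omission took Acta2 to 0.39 (interval 0.22 to 0.56) and Actg2 to 1.82 (9 and 24 UMIs, interval 0.67 to 3.11), while Tagln was at -0.34 (interval -0.68 to -0.004), Myl9 at -0.43 (interval -0.78 to -0.10) and Des at -0.53 (interval -0.89 to -0.17). Tpm2 was at -0.21 with an interval that included 0 (-0.47 to 0.05). The last of the 3 sGC-ΔPC cells was picked by barcode order from a pair tied at 4 Myh11 UMIs. The cell left out had 20 Acta2 UMIs, and the one kept had 257. The values of the other members after this omission thus depend on an arbitrary pick, and the other pick was not run. Whether Myh11 differs in the other cells could not be told at these counts.

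The sGC-Ctr pericyte with most contractile UMIs had all 10 members among its 24311 UMIs, with 413 of Acta2, 134 of Tagln, 37 of Myh11, 36 of Actg2 and 8 of the 9 Cnn1 UMIs of the class. It also had 113 Rgs5 UMIs, so it carried the leading pericyte marker beside the contractile genes. The gate could not tell whether it was a pericyte or a smooth muscle cell. Without it and the leading sGC-ΔPC cell of the gene, the log2 ratio of Actg2 was 1.29 (10 and 19 UMIs, interval 0.12 to 2.56). Of the 24 Mustn1 UMIs in sGC-Ctr pericytes, 22 came from 3 cells.

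Des and Tpm2 were spread widely over pericytes. A UMI of Des was present in 37 of 40 and 36 of 45 pericytes (sGC-Ctr and sGC-ΔPC), with a median of 4.90 and 3.58 UMIs per 10000 of the cell and a highest value of 11.5 and 23.6. The value of 23.6 came from 2 Des UMIs in a shallow cell with 848 UMIs. Tpm2 was present in 37 and 32 cells, with medians of 7.28 and 4.93. Acta2 ranged from 0 to 170 UMIs per 10000 in sGC-Ctr pericytes (median 7.12) and from 0 to 143 in sGC-ΔPC pericytes (median 1.14). The ranges of the genotypes overlapped for each of these genes.

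Acta2 was detected in 34 of the 40 pericytes of sGC-Ctr (85.0%, interval 70.2 to 94.3%) and in 24 of the 45 of sGC-ΔPC (53.3%, interval 37.9 to 68.3%). The sGC-ΔPC cells were shallower: 2 and 16 pericytes had under 2000 UMIs. With the remaining 38 and 29 cells thinned to 2000 UMIs each, the shares were 66.8% and 48.5%. In macrophages, which should lack Acta2 and had medians of 11336.5 and 4607 UMIs, the shares were 2.53% and 1.73%, and 0.432% and 0.596% after thinning, so the pericyte shares were far above this background.

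**Figure D4:**
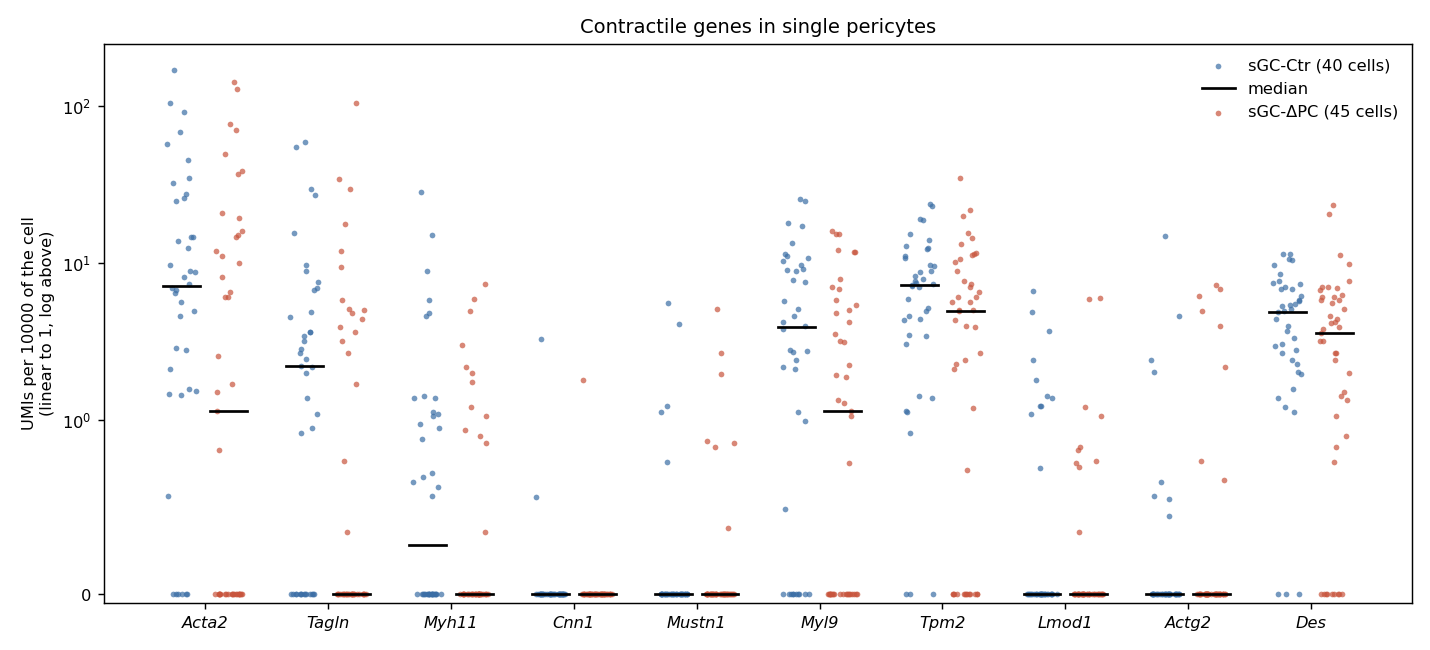
Level of each contractile gene in single pericytes as UMIs per 10000 of the cell (linear to 1, log above), with 40 cells of sGC-Ctr (blue), 45 of sGC-ΔPC (red) and the median of each (black line). Acta2 spans from 0 to 170, Des and Tpm2 are found in most cells, and most Myh11 UMIs of sGC-Ctr come from a few high cells.

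Within pericytes, members varied together to different degrees. Over the 38 sGC-Ctr and 29 sGC-ΔPC pericytes with at least 2000 UMIs, the Spearman correlation with Acta2 was 0.79 and 0.65 for Myl9, 0.69 and 0.47 for Tagln, 0.60 and 0.83 for Tpm2 and 0.41 and 0.53 for Myh11. It was 0.34 and 0.17 for Des and 0.17 and 0.10 for the pericyte marker Rgs5. These cells share a library and differ in depth, so the values describe these cells only. Of the 5 members compared with Acta2, Des had the lowest value in both libraries.

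Fibroblasts carried part of the set. Acta2 was at 160 CPM in the 123 sGC-Ctr fibroblasts and 53.0 in the 345 sGC-ΔPC fibroblasts (431 and 161 UMIs, log2 ratio -1.60, interval -1.87 to -1.33). Tagln was at 130 and 53.0 CPM (349 and 161 UMIs, log2 ratio -1.29, interval -1.57 to -1.02), and Tpm2 at 270 and 210 CPM (log2 ratio -0.36, interval -0.52 to -0.21). Thus 2 of the 3 members with at least 50 UMIs were at least 2-fold lower, where 1.42% of the 8456 genes counted in fibroblasts were, and the median was -1.29 against -0.05 for all genes. Other values moved with this: the cancer cell markers stood at 5.79% of their cancer cell level in sGC-Ctr fibroblasts and 19.0% in sGC-ΔPC fibroblasts, and the median summed fibroblast marker level was 420 and 218 per 10000. The fibroblast markers Pi16 (343 and 106 CPM) and Clec3b (109 and 15.5 CPM) were lower too. In fibroblasts low in cancer markers the median of the 3 members was -1.11, and the part of the other differences in the result was not tested.

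Much of the fibroblast difference came from 1 cell. A single sGC-Ctr fibroblast with 38820 UMIs held 290 of the 431 Acta2 and 185 of the 349 Tagln UMIs. It had 430 fibroblast marker UMIs per 10000 and no Rgs5, and it also held all 5 Myh11 UMIs of the class. Without the leading cell of each gene in each library, the log2 ratio was -0.36 for Acta2 (141 and 124 UMIs, interval -0.72 to -0.01), -0.50 for Tagln (interval -0.84 to -0.16) and -0.27 for Tpm2 (interval -0.43 to -0.11). The leading 3 cells held 370 of the 431 Acta2 UMIs in sGC-Ctr and 61 of the 161 in sGC-ΔPC. The ratio without these 3 cells was not computed. With fibroblasts thinned to 2000 UMIs, Acta2 was detected in 5.67% of sGC-Ctr and 9.77% of sGC-ΔPC cells, and Tagln in 7.79% and 8.17%. By that measure neither gene was lower in sGC-ΔPC fibroblasts.

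Thbs4, a matrix protein of the thrombospondin family, split the fibroblasts into a smaller and a larger group. In sGC-ΔPC, the 49 fibroblasts with a Thbs4 UMI had Acta2 at 90.5 CPM (interval 61.1 to 129), and the 296 without at 48.4 (interval 40.4 to 57.4). In sGC-Ctr, the 24 with a Thbs4 UMI had 34.4 CPM (interval 20.4 to 54.3) and the 99 without had 191. With the leading cell of each group left out, the values were 73.1 and 35.3 CPM in sGC-ΔPC and 12.2 and 57.9 CPM in sGC-Ctr, with and without a Thbs4 UMI. By these sums Acta2 was higher beside Thbs4 in sGC-ΔPC fibroblasts and lower beside it in sGC-Ctr fibroblasts. The sGC-Ctr values rest on few cells, as 3 fibroblasts held 370 of the 431 Acta2 UMIs of that class. The difference between libraries was not tested. Median depth was 20724 and 20654 UMIs in the sGC-Ctr groups against 2872 and 3512.5 in the sGC-ΔPC groups.

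In cancer cells, Tpm2 was the 1 member at a high level, with 122.6 CPM in the 7028 sGC-Ctr and 123.1 in the 11877 sGC-ΔPC cells (log2 ratio 0.01, interval -0.01 to 0.02). A UMI of it was present in 97.1% and 78.9% of those cells, and in 21.2% and 22.0% after thinning to 2000 UMIs. The other members lay at 4.09 CPM or lower. Among the 8 with at least 50 UMIs, Tagln (146 and 350 UMIs, log2 ratio 1.52), Myh11 (19 and 86 UMIs, 2.43) and Actg2 (10 and 48 UMIs, 2.52) were at least 2-fold higher in sGC-ΔPC, against 3.98% of the 15313 genes counted, and the median was 0.80.

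Many of those UMIs sat in few cells that also carried pericyte markers. The cancer cell gate held 6 sGC-Ctr and 30 sGC-ΔPC cells with at least 4 of the 9 members other than Tpm2. These cells were chosen on the members, so a large share of member UMIs is in part built in. The 30 held 74.4% of the Myh11 and 69.1% of the Tagln UMIs of the class, but 35.8% of Acta2 and 39.8% of Des. The 6 sGC-Ctr cells held 52.6% of Myh11 and 36.3% of Tagln. The median pericyte marker level of the 30 was 11.95 UMIs per 10000, while that of the other sGC-ΔPC cancer cells was 0. Of the 30, 23 had an Rgs5 UMI and 25 a Krt18 UMI, a keratin of the cancer cells. The cell with the highest counts had 76176 UMIs, among them 169 of Acta2, 120 of Tagln, 42 of Myh11, 28 of Actg2 and 92 of Rgs5, with marker levels per 10000 of 18.5 for pericytes and 15.6 for cancer cells. In the 7019 and 11778 cancer cells with a pericyte marker level under 5 per 10000, the median log2 ratio of the 6 members that still had at least 50 UMIs was -0.039, with Acta2 at -0.22 and Tagln at 0.50 (interval 0.10 to 0.90). Myh11 (11 and 21 UMIs, log2 ratio 1.19, interval 0.07 to 2.39) and Actg2 (4 and 13 UMIs, log2 ratio 1.96, interval 0.26 to 4.03) fell under that minimum but still had intervals above 0.

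Some cells rich in contractile genes lay outside the pericyte gate, and the members were also summed over wider sets. In sGC-Ctr and sGC-ΔPC, cells with at least 4 of the 9 members numbered 28 of 40 and 13 of 45 among pericytes. Among cells that passed no gate they numbered 5 of 2180 and 20 of 5649. The number of members found depends on depth. Median depth was 10371.5 and 5130 UMIs in pericytes and 6500.5 and 2568 in ungated cells, so these counts are not a like comparison between libraries. The cluster that held all gated pericytes had 53 cells in sGC-Ctr (40 gated pericytes, 8 cancer cells, 4 ungated) and 218 in sGC-ΔPC, where 45 were gated pericytes and 56 ungated and most others passed the cancer cell gate. Relative to the summed pericyte markers of that cluster, which had a log2 ratio of -0.87 themselves, the log2 ratio was 0.07 for Acta2, 0.13 for Tagln, -0.24 for Myh11, -0.21 for Myl9 and -0.81 for Mustn1. It was 0.52 for Actg2, 0.24 for Tpm2, 0.23 for Lmod1, 0.15 for Des and -0.08 for Cnn1. Mustn1 had 58 and 31 UMIs in the cluster and Cnn1 9 and 8. No interval was computed for these relative ratios. Over all kept cells, Myh11 was counted 197 and 155 times (log2 ratio -0.14, interval -0.45 to 0.17), an interval that did not reach the -1.62 of gated pericytes. A sum over all kept cells also depends on the share of each class in a library, so these values are not a like comparison.

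Over all kept cells, Cnn1 was the member with the lowest ratio, at 49 and 15 UMIs (log2 ratio -1.50, interval -2.44 to -0.64). Of the 49, 31 came from 1 ungated sGC-Ctr cell that carried all 10 members, with 188 Acta2, 169 Tagln, 33 Mustn1 and 23 Myh11 UMIs among 17600 and no Rgs5. A second ungated sGC-Ctr cell had 247 Acta2 and 33 Mustn1 UMIs beside 15 of Rgs5. The ungated sGC-ΔPC cell with most Acta2 had 28 UMIs of it. Mustn1 had 214 and 117 UMIs over all kept cells (log2 ratio -0.66, interval -0.999 to -0.33), and Actg2 75 and 97 (log2 ratio 0.58, interval 0.13 to 1.04).

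Other genes of contraction were compared in pericytes from a list of regulators, myosin control genes and thin filament genes. Of the 43 in the files, 28 had at least 50 UMIs, and their median log2 ratio was -0.16, with 1 at least 2-fold lower, 0 at least 2-fold higher and 7 with an interval below 0, where 1.43%, 1.27% and 10.4% of all 2447 genes were. The share with an interval below 0 again depends on the UMIs of a gene. With Rgs5 left out of the pericyte gate the median log2 ratio of these contraction genes turned to 0.18. The exception was Hspb1, a small heat shock protein that binds actin, at 374 CPM in sGC-Ctr and 118 in sGC-ΔPC (173 and 42 UMIs, log2 ratio -1.66, interval -2.19 to -1.17). The next lowest were Mcam, the adhesion molecule CD146 of mural and endothelial cells (-0.57), Tpm1, α-tropomyosin (-0.57, 537 and 279 UMIs), and Filip1l (-0.51), each with an interval below 0. The highest were Nexn, nexilin, which binds actin (0.49, interval -0.10 to 1.08), Ppp1r12a, which targets myosin phosphatase to myosin (0.26), and Cav1, the coat protein of caveolae (0.12), and their intervals included 0.

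By list, the 4 counted genes of the regulator list had a median of -0.04 with no interval below 0, among them the muscle LIM proteins Csrp1 (-0.04) and Csrp2 (-0.04). The 9 counted genes of myosin and its control had a median of -0.17, with 3 intervals below 0, among them those of Mylk, the kinase that phosphorylates Myl9 (-0.41, 338 and 196 UMIs), and the light chain Myl6 (-0.16). The 15 counted genes of the thin filament and dense body list had a median of -0.15 with 4 intervals below 0. That list was loosely drawn: it also held Mcam and Cav1, and Mcam was among the 4. Srf, the factor that binds the CArG box, and its partner Myocd had 4 and 3 UMIs each, too few to compare.

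The nonmuscle and other relatives of the members had a median of 0.02 over the 11 of 14 that were counted, beside -0.08 for all genes. Actb, the actin of all cells, was slightly higher in sGC-ΔPC pericytes (2903 and 2508 UMIs, log2 ratio 0.17, interval 0.09 to 0.24), and Actg1 stood at 0.11. The higher Actb was not limited to pericytes. Its level in sGC-Ctr and sGC-ΔPC was 3950 and 5361 CPM in fibroblasts, 7437 and 8828 in endothelial cells and 3298 and 5096 in cancer cells. In macrophages it was 15805 and 16142 CPM, and in granulocytes it was lower in sGC-ΔPC (5582 and 4589 CPM). Tagln2 stood at -0.17, Tpm3 at 0.13, Tpm4 at -0.11, Cnn2 at 0.08, Myl12a at 0.03, Myl12b at -0.27 and Vim, the filament protein beside Des, at 0.02. Myh9, a nonmuscle myosin heavy chain, had a log2 ratio of -0.35 (223 and 135 UMIs, interval -0.67 to -0.03), and Cnn3 -0.50 (99 and 54 UMIs). Myh10 had 4 and 0 UMIs, and Lmod2 and Lmod3, leiomodins of striated muscle, had none.

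**Figure D5:**
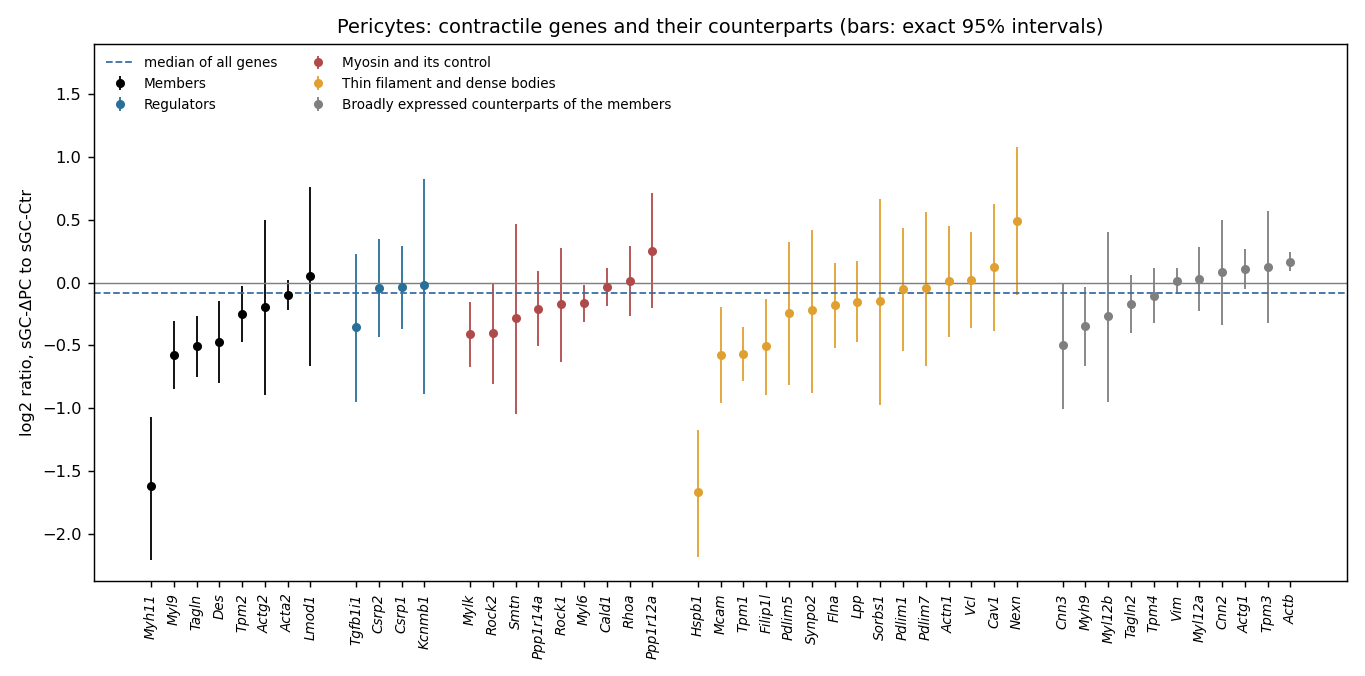
Log2 ratio of the level in sGC-ΔPC to that in sGC-Ctr pericytes, with exact 95% intervals, for the members, 3 lists of other contraction genes and the relatives of the members (grey), each with at least 50 UMIs; the dashed line is the median of all genes at -0.08. Myh11 and Hspb1 stand lowest, at -1.62 and -1.66, and most others lie between -0.6 and 0.2.

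Genes with the pattern of the members across classes were sought among 16005 genes with at least 50 UMIs, by the Pearson correlation with the mean of the members (log2 of CPM plus 1) over 18 points, the 9 classes in each library. The 5 closest outside the set were Notch3 (0.991), itself a marker of the pericyte gate, Heyl, a target of Notch signaling (0.991), Id4, a helix-loop-helix inhibitor (0.989), Lin7a (0.988) and 4833422C13Rik (0.987). The pericyte gate used Notch3, and all of these points share the gate and the libraries, so the values are descriptive.

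Low counts of Acta2 were found outside mural cells and fibroblasts. Granulocytes had 21 and 20 Acta2 UMIs (33.7 and 25.4 CPM) in 15 of 275 and 14 of 320 cells, above the 2.10 and 2.43 CPM of macrophages, while T cells had 1 and 0. Tagln had 2 UMIs in granulocytes of each library and no Myl9 UMI was found in those of sGC-Ctr. Endothelial cells had 15 Acta2 UMIs in sGC-Ctr, 12 of them in 1 cell, and 0 in sGC-ΔPC, where 3 UMIs would be 2.37 CPM.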

How the data were processed

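Single-cell RNA libraries (10x Genomics, 3' v3 kit) were made from dissociated LLC tumors, 1 library for each genotype. Per the submitters' processing notes, reads were counted with Cell Ranger 6.1.1 on mm10, and the authors deposited raw UMI counts per gene and barcode. These counts were read with Python 3.11.15, numpy 2.4.6, scipy 1.17.1 and pandas 2.3.3. Cells were kept under 10% mitochondrial UMIs and where UMIs and genes differed from their library's median by less than 3 median absolute deviations (log scale). A cell passed the gate of a class with UMIs of at least 3 of its markers and a summed level over a cut per 10000 UMIs (30 for pericytes, 100 for fibroblasts, 8 for cancer cells). Cells passing more than 1 gate were left out as mixed, and no doublet caller was run. The cuts were set from marker sums after the files were read and before the members were summed. The members, gene lists and comparisons were chosen with earlier results of these data known. UMIs were summed over the cells of a class and scaled to CPM, so a difference in the RNA of a class and in which of its cells were captured cannot be told apart. Levels have Poisson intervals, shares binomial intervals and ratios conditional binomial intervals, all exact at 95%, and a gene entered a comparison if the libraries summed to 50 UMIs or more in the class. Because each genotype had 1 library, no test was made. The ratios with their intervals were tested on simulated Poisson sums, and the thinning formula on simulated cells. Those sums lacked the uneven spread of UMIs over cells seen here. The filters, gates and clusters were not tested this way. Clusters for an alternative were found with scanpy 1.11.5, leidenalg 0.10.2 and igraph 0.11.9, and figures drawn with matplotlib 3.10.9. Promoters are from RefSeq (GRCm38.p6). Named were all members, the 5 lowest and 5 highest of the other contraction genes and relatives together, each relative of a member, Thbs4, Gucy1b1 and Cspg4, the skeletal muscle list and the 5 genes most like the members. Other genes named (Mylk, Myl6, Csrp1, Csrp2, Srf and Myocd) and all single cells were chosen after their values were seen.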

Additional observations from a re-analysis of the deposited data

Results flagged for a closer look

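For 6 pairs of values the direction of the log2 ratio was opposite in a pair of classes, with both intervals away from 0, and none of these differences between classes was tested. The log2 ratio in cancer cells minus that in pericytes was 2.02 for Tagln, 4.06 for Myh11, 1.39 for Myl9 and 1.26 for Des. The log2 ratio in cancer cells minus that in fibroblasts was 1.93 for Acta2 and 2.81 for Tagln. The cancer cell values include the 6 and 30 cells with at least 4 members, whose median pericyte marker level was 11.2 per 10000 in sGC-Ctr and 11.95 in sGC-ΔPC. In cancer cells with a pericyte marker level under 5 per 10000, 3 of these genes no longer lay above 0. The log2 ratio there was 0.05 for Myl9 (interval -0.40 to 0.51) and -0.08 for Des (interval -0.51 to 0.35). That of Acta2 was -0.22 (interval -0.35 to -0.09), the same direction as in fibroblasts. Tagln (0.50, interval 0.10 to 0.90) and Myh11 (1.19, interval 0.07 to 2.39) stayed above 0.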

How the results depend on the processing

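Pericytes stayed the class with the highest counted level for 9 or 10 members under all 10 alternatives run. The median log2 ratio of the members, taken in gated pericytes in the report, stayed below 0 under all 17 alternatives. It ran from -0.74 in the cluster with most gated pericytes to -0.12 without Rgs5 in the gate. Not all of these are values of pericytes alone. They include the sum over all kept cells (-0.13) and that cluster, where 45 of the 218 sGC-ΔPC cells were gated pericytes. The number of members at least 2-fold lower in pericytes, 1 in the report, became 2 with a mitochondrial limit of 5% (Myh11 and Myl9), 2 with gate thresholds halved and 2 with a minimum of 20 UMIs (Myh11 and Mustn1 in both), 3 in the cluster that holds most gated pericytes (Myh11, Mustn1 and Myl9), 0 with the pericyte gate without Rgs5 and 0 without the 3 pericytes of each library with most Myh11. With cells thinned to 2000 UMIs the 1 gene was Myl9, and over all kept cells it was Cnn1. The median in fibroblasts, -1.29, moved to -0.14 with thinning, to -0.51 with each cell weighted equally and to -0.36 without the leading cell of each gene. The median in cancer cells, 0.80, moved to 0.46 with a mitochondrial limit of 5%, 0.027 with gate thresholds doubled, 0.048 with them halved, 1.92 with each cell weighted equally and 2.23 with clusters in place of gates, and turned to -0.039 in cancer cells low in pericyte markers. The median of the other contraction genes in pericytes, -0.16, turned to 0.18 with the pericyte gate without Rgs5. The cause of these moves was not tested, beyond the cells each alternative leaves out. Clusters in place of gates gave no pericyte value. The sGC-ΔPC cluster with most gated pericytes had pericyte markers at 2573 CPM of its pooled UMIs, under the cut of 30 per 10000. The alternatives without the leading cell in fibroblasts and cancer cells, without 3 pericytes, in the pericyte cluster, in cancer cells low in pericyte markers, with cells that pass a second gate and over all kept cells were chosen after seeing the data. No paired analysis was possible because each genotype had 1 library. Counts in 40 and 45 pericytes limit every ratio there, and variation between tumors cannot be seen.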
